A study of Arabidopsis thaliana with 27 samples.

Results

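The transcripts described here encode 10 cytosolic chaperones and co-chaperones of Arabidopsis thaliana. They were taken as a fixed list of loci, with no measured value in the rule, and are the Hsp70 proteins HSC70-1 (AT5G02500), HSC70-3 (AT3G09440), HSC70-4 (AT3G12580) and Hsp70b (AT1G16030), the Hsp90 proteins HSP90.1 (AT5G52640) and HSP90.2 (AT5G56030), the Hsp100 protein HSP101 (AT1G74310), and the co-chaperones FES1A (AT3G09350), ROF2 (AT5G48570) and BAG6 (AT2G46240). Earlier results of these data were known when the list was chosen, so its counts of calls are not those of an independent list. The listed genes are 10 of the 32627 loci on the array and are read by 13 of its 37118 features, where a feature is the summary of the 1 to 4 probe pairs that the array carries for it.

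Hsp70 proteins bind exposed hydrophobic stretches of unfolded polypeptides and release them in a cycle driven by ATP hydrolysis and by exchange of ADP for ATP. Hsp90 proteins act later on, on near-native clients such as receptors and kinases, and the hexameric HSP101 pulls polypeptides out of aggregates together with Hsp70. In Arabidopsis some of these genes are transcribed at all times and others mainly under heat or other proteotoxic conditions, when heat stress transcription factors (HSFs) of class A, HSFA2 among them, bind their promoters. Cadmium is a toxic metal that binds thiol groups of proteins.

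The series holds 27 one-colour NimbleGen arrays of total RNA from 2-week-old plants of the Col-0 ecotype, with 3 arrays in each of 9 labelled groups. The labels name 3 lines, which are wt (WT below), Atgox2 (gox2 below, written atgox on its control arrays) and s35S (35S::GOX2 below). GOX2 is glycolate oxidase 2, a peroxisomal enzyme of photorespiration that produces H2O2. The gox2 line is a mutant affected in that gene, and 35S::GOX2 overexpresses it from the 35S promoter, which is active in most cell types. Plants of each line were kept in a solution without cadmium (control) or with 100 µM cadmium for 30 min or 24 h. The labels give no time for the control arrays, and the same controls of a line serve both cadmium times. A difference from control may therefore hold time in solution as well as cadmium. Each replicate pooled at least 5 plants, which the labels call seedlings in one field and leaves in another, and all 9 groups share the ecotype and the incubation in liquid. The 8 leaf markers lay at a median percentile of 99.5 among all features (42.0 to 99.98), and the 12 root markers at a median percentile of 61.1 (28.5 to 99.9). The lists overlapped, and these are ranks of different genes with different probes, so they do not tell which tissue was taken.

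On the arrays, GOX2 transcript went against some labels. It was at 10.45 or lower on 9 arrays, the controls of 35S::GOX2 and the 30 min arrays of both WT and gox2, and at 13.63 or higher on the other 18, among them all 3 arrays labelled gox2 control. Where the GOX2 probes lie relative to the mutation was not examined. In addition 8 of the 27 arrays were closer in their overall profile to an array of another label than to any of their own, namely all 3 labelled gox2 control, all 3 labelled gox2 Cd 24 h, and replicate 2 of those labelled 35S::GOX2 Cd 30 min and 35S::GOX2 Cd 24 h. Groups are therefore given below as the arrays labelled so. For the 10 genes, the calls that rest on the 4 mixed groups are given with and without single arrays. Values are log2 intensities after quantile normalization, and their brightness depends on the probe, so levels below are compared between arrays for one gene and never between genes. A lower value in such bulk RNA cannot tell fewer cells that make a transcript from less transcript per cell. A difference is called where the adjusted p from limma, fitted over all 27 arrays and corrected over all features, was under 0.05. Shares of all features called come from this fit and were not recorded for the alternative fits.

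**Figure D1:**
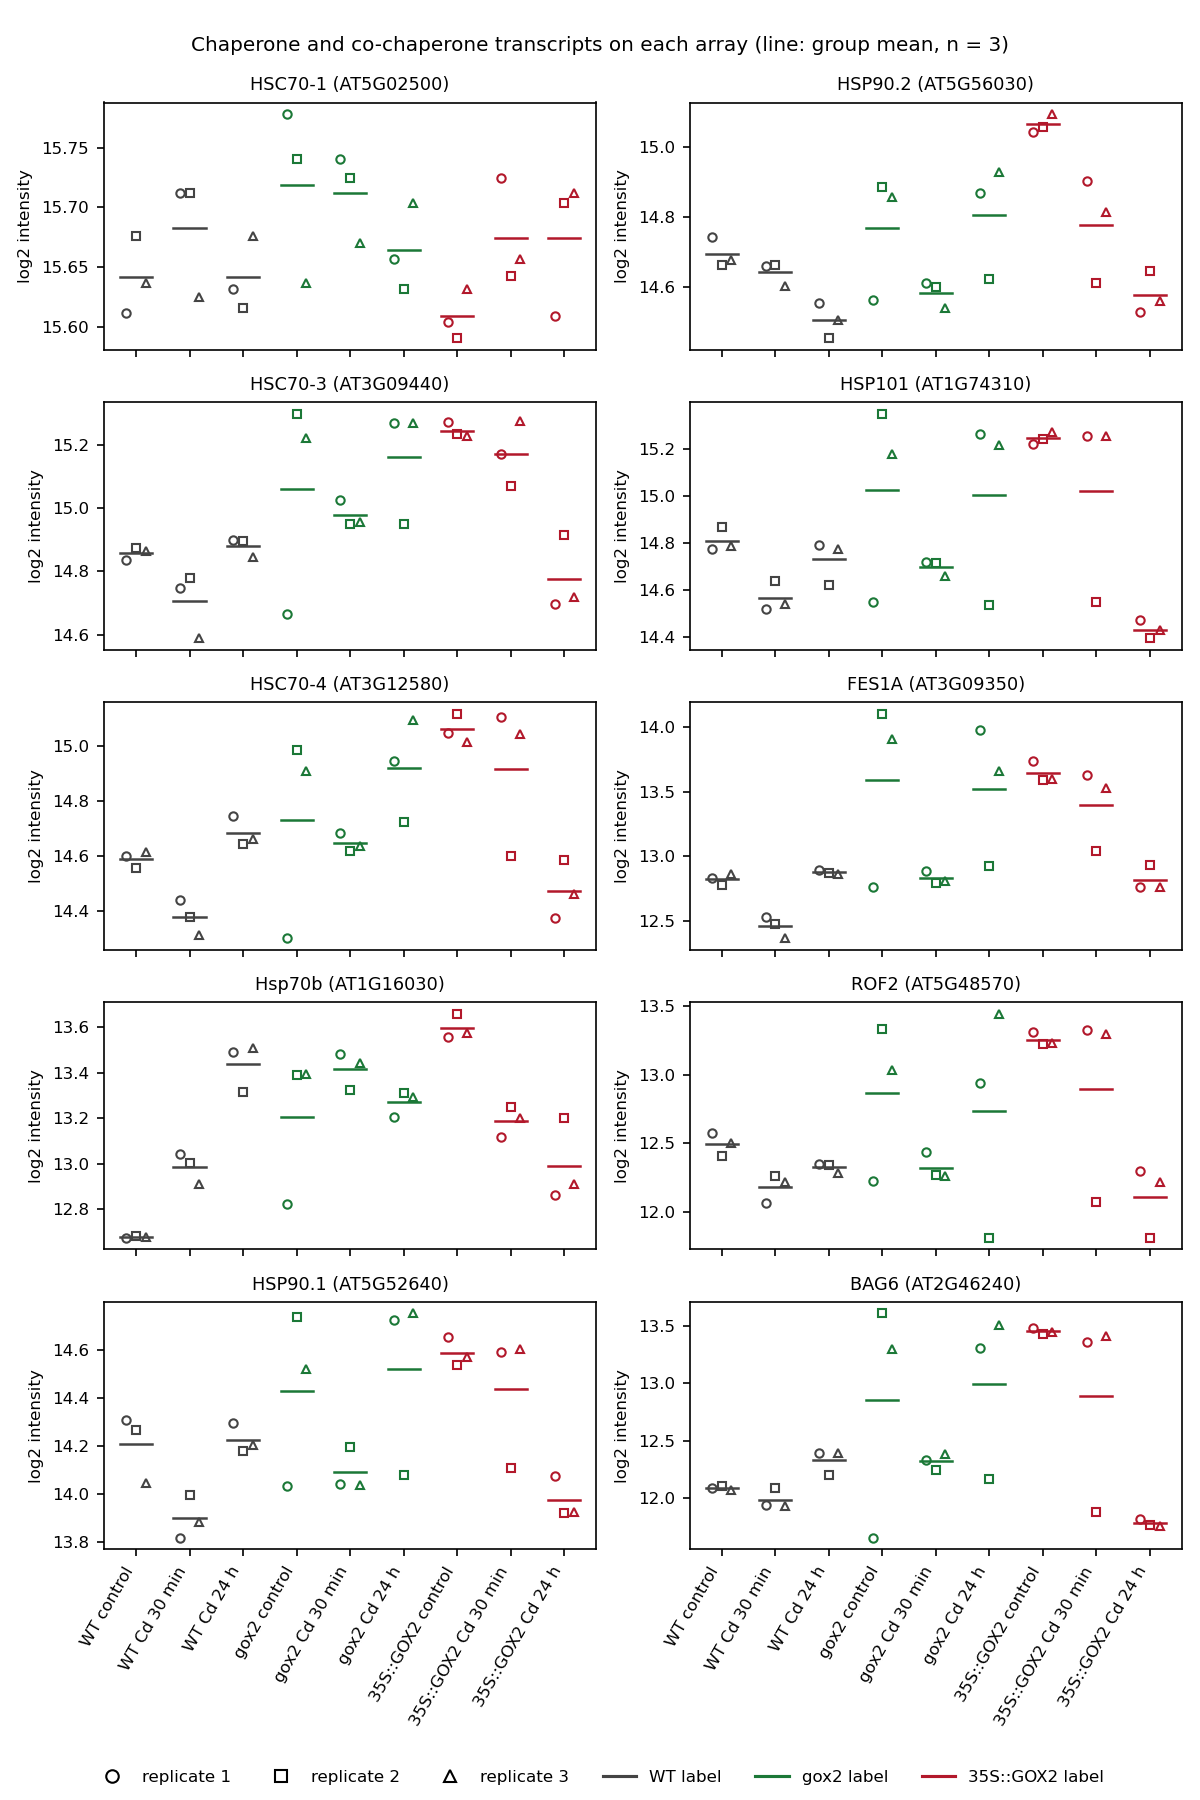
Log2 intensity (y axis) of each of the 10 genes on the 27 arrays, by labelled group (x axis), with 1 symbol per replicate and a line at the mean of the 3 arrays of a group. HSC70-1 spans 0.19, whereas BAG6 spans 1.95 and has 9 arrays at 13.30 or higher and 18 at 12.39 or lower; the y axes differ between genes.

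HSC70-1, the main constitutive cytosolic Hsp70, had the narrowest range of the 10. Its level ran from 15.59 to 15.78 over the 27 arrays, a range of 0.19 that was narrower than that of nearly all features (percentile 0.12), and its second feature spanned 0.20. Its highest value lay 0.04 below the brightest value of the arrays, where changes in either direction can be compressed, so the narrow range does not show a constant transcript level. It was called in none of the 13 comparisons or the 4 differences of responses.

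HSC70-3, a cytosolic Hsp70 that is also made without stress, moved within a narrow band. It stood at 14.84, 14.87 and 14.86 on the arrays labelled WT control and at 15.27, 15.23 and 15.23 on those labelled 35S::GOX2 control. It was lowest on a WT Cd 30 min array, at 14.59, and highest on gox2 control replicate 2, at 15.30. The 3 arrays labelled gox2 control did not stay together, because replicate 1 stood at 14.66 and replicate 3 at 15.22.

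HSC70-4, the cytosolic Hsp70 that heat and other stresses induce, had a wider range, of 0.82. Its values were 14.60, 14.56 and 14.61 on the arrays labelled WT control, 14.44, 14.37 and 14.31 on those labelled WT Cd 30 min and 14.74, 14.64 and 14.66 on those labelled WT Cd 24 h. Under the 35S::GOX2 label it stood at 15.05, 15.12 and 15.02 without cadmium, at 15.11, 14.60 and 15.05 after 30 min and at 14.37, 14.58 and 14.46 after 24 h. Replicate 2 of the 30 min arrays, at 14.60, thus lay nearer to the highest 24 h array, at 14.58, than to the others of its own label. It also lay within the range of the arrays labelled WT control.

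Hsp70b, a cytosolic Hsp70 that is strongly induced by heat, had an order of its own among the 10. It was lowest on the arrays labelled WT control, at 12.67, 12.68 and 12.68, which is a spread of 0.01. It stood at 13.04, 13.00 and 12.91 on those labelled WT Cd 30 min and at 13.49, 13.31 and 13.51 on those labelled WT Cd 24 h. The 3 WT groups therefore followed each other without overlap. Among the arrays labelled 35S::GOX2 the order ran the other way, from 13.56, 13.66 and 13.57 without cadmium to 13.12, 13.25 and 13.20 after 30 min and 12.86, 13.20 and 12.91 after 24 h. The arrays labelled gox2 Cd 30 min lay at 13.48, 13.32 and 13.44, beside those labelled WT Cd 24 h, with which they overlapped.

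HSP90.1, the heat-inducible cytosolic Hsp90, ran from 13.82 to 14.75. It was at 14.31, 14.27 and 14.05 on the arrays labelled WT control and at 13.82, 14.00 and 13.88 on those labelled WT Cd 30 min. The arrays labelled 35S::GOX2 control were at 14.66, 14.54 and 14.57, and those labelled 35S::GOX2 Cd 24 h at 14.07, 13.92 and 13.93. These pairs of groups did not overlap.

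HSP90.2, which is made without heat and is one of a cluster of near-identical cytosolic Hsp90 genes whose transcripts its probes may share, spanned 0.64. The arrays labelled 35S::GOX2 control stood above all others, at 15.05, 15.06 and 15.10, and the next array, gox2 Cd 24 h replicate 3, was at 14.93. Those labelled WT Cd 24 h were the lowest group, at 14.55, 14.45 and 14.51, below the arrays labelled WT control at 14.74, 14.66 and 14.68.

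HSP101, the disaggregase on which acquired thermotolerance of Arabidopsis depends, fell into 2 separate ranges. On 9 arrays it lay between 15.18 and 15.35, and on the other 18 between 14.39 and 14.87. The upper range held the 3 arrays labelled 35S::GOX2 control (15.22, 15.24 and 15.27), replicates 1 and 3 of 35S::GOX2 Cd 30 min (15.26 and 15.26), replicates 1 and 3 of gox2 Cd 24 h (15.26 and 15.22) and replicates 2 and 3 of gox2 control (15.35 and 15.18). The remaining array of each of the 3 split groups stood at 14.54 or 14.55. That is above those labelled 35S::GOX2 Cd 24 h, at 14.47, 14.39 and 14.43, and within the range of those labelled WT Cd 30 min (14.52 to 14.64).

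The 3 co-chaperones showed the widest ranges apart from a dim feature of FES1A. FES1A, which binds cytosolic Hsp70 and keeps it stable under heat, was at 12.83, 12.78 and 12.87 on the arrays labelled WT control, 12.53, 12.48 and 12.37 on those labelled WT Cd 30 min, and 13.74, 13.59 and 13.60 on those labelled 35S::GOX2 control. ROF2, an FKBP-type prolyl isomerase that binds Hsp90, was at 12.58, 12.41 and 12.51 on the arrays labelled WT control and at 13.31, 13.22 and 13.23 on those labelled 35S::GOX2 control. Its lowest values, of 11.81 each, were on replicate 2 of gox2 Cd 24 h and replicate 2 of 35S::GOX2 Cd 24 h.

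BAG6, a calmodulin-binding protein whose BAG domain attaches to Hsp70, had the widest span of the 10, of 1.95, wider than that of 90.9% of features. It was at 12.09, 12.11 and 12.07 on the arrays labelled WT control, 11.94, 12.09 and 11.93 on those labelled WT Cd 30 min and 12.39, 12.20 and 12.39 on those labelled WT Cd 24 h. Under the 35S::GOX2 label it was at 13.48, 13.43 and 13.45 without cadmium and at 11.82, 11.77 and 11.76 after 24 h, which are among the highest and the lowest values of the series. Ordered by level, the 27 arrays of BAG6 showed a step of 0.90 between 12.39 and 13.30, which was 46.1% of the whole range, with 9 arrays above it.

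The same 9 arrays that carried the high BAG6 and HSP101 values carried the highest HSC70-3, HSC70-4, HSP90.1, HSP90.2, FES1A and ROF2 values. For 7 of these 8 genes the widest step in the ordered values fell exactly between these 9 arrays and the other 18, by 0.10 for HSC70-3, 0.17 for HSC70-4, 0.21 for HSP90.1, 0.31 for HSP101, 0.37 for ROF2, 0.48 for FES1A and 0.90 for BAG6. HSP90.2 had its widest step, of 0.12, between the arrays labelled 35S::GOX2 control and all others. The 9 arrays lay on all 3 slides, and GOX2 transcript was low on 3 of them and high on 6. A part of the slide or of the GOX2 level in the split was not tested. They are named here from these values and were neither averaged nor tested as a group.

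**Figure D2:**
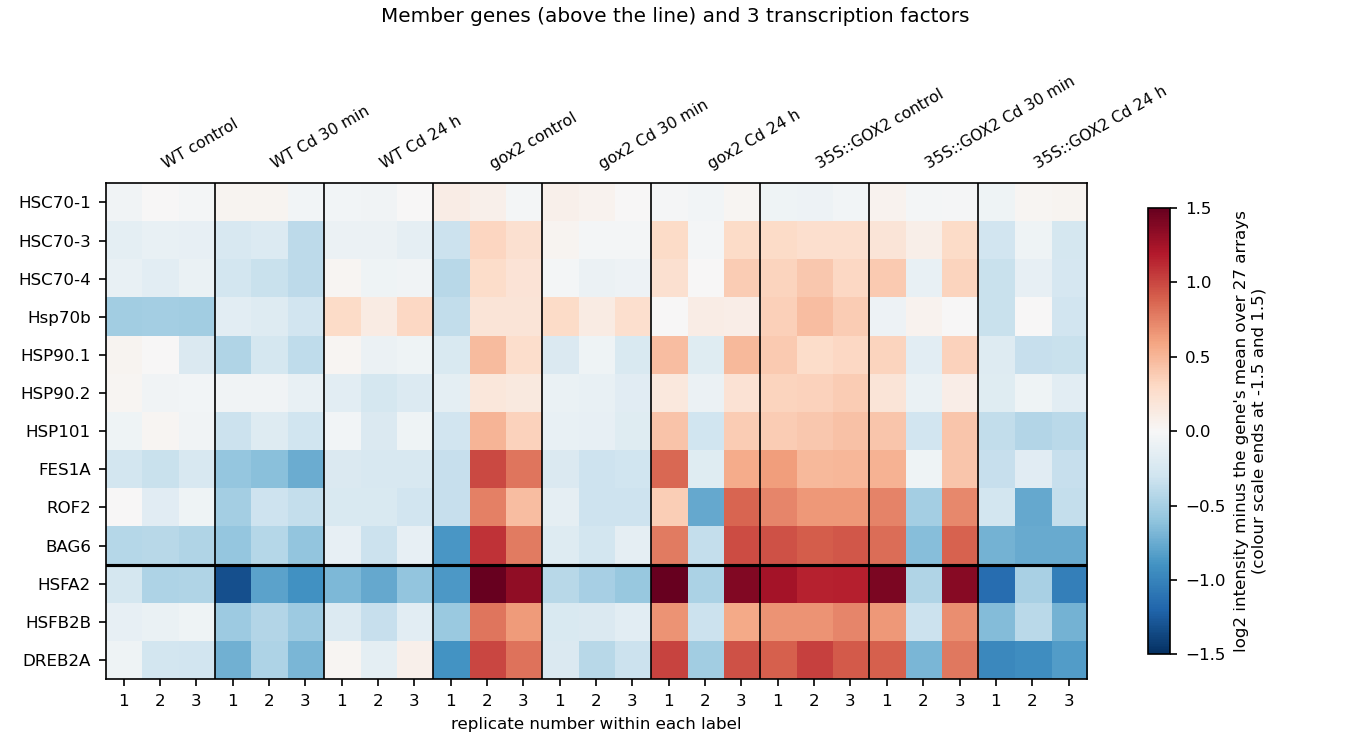
Log2 intensity minus each gene's mean over the 27 arrays (colour), for the 10 genes above the line and for HSFA2, HSFB2B and DREB2A below it, with 1 column per array by labelled group and replicate number. The 3 arrays labelled 35S::GOX2 control and 6 arrays of 3 mixed groups are high in 8 of the 10 genes, and HSC70-1 and Hsp70b do not show that split.

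The likeness of the genes to each other over the 27 arrays is given as a description, because the arrays share labels and slides and fall into separate ranges. The correlation of a gene with the mean of the other 9 was 0.98 for BAG6, 0.96 for HSP101, 0.95 for HSC70-4, 0.94 for HSP90.1, 0.93 for HSC70-3, 0.92 for FES1A, 0.90 for ROF2 and 0.85 for HSP90.2. It was 0.50 for Hsp70b and -0.15 for HSC70-1. After the group means had been taken out, so that only the differences between arrays of one label remained, the correlations were 0.98 for BAG6, 0.97 for HSP101, 0.42 for Hsp70b and 0.03 for HSC70-1. What remained then came mostly from the 3 split groups, in which the highest SD of a member was 1.05 (gox2 control), 0.87 (35S::GOX2 Cd 30 min) and 0.84 (gox2 Cd 24 h), against 0.08 to 0.26 in the other 6.

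Outside the 10 genes, 8 loci out of 32617 were most like their mean profile. They were HSFB2B (AT-HSFB2B, AT4G11660), a class B heat stress factor that acts as a repressor, with r = 0.98, the transposase-like AT4G29780 with 0.98, DREB2A, a drought- and heat-responsive activator, with 0.97, the lipase-like AT5G11650 with 0.97, HSFA2 with 0.97, RPS6 (AT5G46470), an immune receptor gene, with 0.97, LOX4, a lipoxygenase of jasmonate synthesis, with 0.97, and CAF1a, a deadenylase subunit, with 0.97. HSFA2 lay between 13.47 and 13.88 on the 9 arrays with high HSP101 and between 10.99 and 12.05 on the other 18. DREB2A lay between 13.47 and 13.71 on the 9 and between 11.72 and 12.77 on the 18. Both factors were chosen for their likeness to the 10 genes, so this separation follows from the choice.

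Between the arrays labelled WT with and without cadmium, most of these genes differed little. GOX2 transcript was at 13.69 to 13.77 on the controls and at 13.63 to 13.70 after 24 h. On the arrays labelled WT Cd 24 h, Hsp70b was 1.69-fold higher than on those labelled WT control (log2 difference 0.76, SE 0.11, limma adjusted p = 0.0032), and it was the 1 gene of the 10 called, where 3.22% of all features were called and 1.5% were called higher. The other 9 differed by -0.19 to 0.24, with a median over the 10 of 0.02 against -0.01 over all features. BAG6 was 0.24 higher (SE 0.40, adjusted p = 0.778) and HSP90.2 0.19 lower on the log2 scale (SE 0.09, adjusted p = 0.218), neither of them called. The 3 arrays did not overlap with the 3 controls for 5 genes, as for 38.9% of all features, with Hsp70b, HSC70-4 and BAG6 above and HSP90.2 and ROF2 below. All 6 arrays lay on 1 slide. In a fit without the 4 mixed groups, whose larger spread enters the pooled error, BAG6 and HSP90.2 were called as well. The share of all features called in that fit was not recorded.

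After 30 min none of the 10 genes was called on the arrays labelled WT Cd 30 min, where 15% of all features were, and 1 had an unadjusted limma p under 0.05. This gene, Hsp70b, was above all controls (log2 difference 0.31, SE 0.11, adjusted p = 0.0754), and 7 genes lay below all controls with differences from -0.05 for HSP90.2 to -0.37 for FES1A. Groups that did not overlap were frequent in this comparison, at 42.4% of all features, of which 17.8% stood above and 24.6% below. The call depended on the arrays in the fit, since 4 genes (Hsp70b higher, HSP101, FES1A and ROF2 lower) were called from these 2 groups alone. Without the 4 mixed groups 7 were called, with HSC70-3, HSC70-4 and HSP90.1 lower in addition. The share of all features called was not recorded for either fit, so these counts have no background beside them. These arrays lay on slide 2 and their controls on slide 1, so that slide and treatment cannot be told apart. GOX2 transcript also differed within the label, at 13.69 to 13.77 on the controls and 10.03 to 10.45 on the 30 min arrays. Whether both groups are of 1 line was not tested.

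Without cadmium, the arrays labelled 35S::GOX2 control had higher chaperone transcripts than those labelled WT control. Of the 10 genes 6 were called higher and none lower, where 38.3% of all features were called and 16.2% called higher. The log2 differences were 1.36 (SE 0.40, adjusted p = 0.0107) for BAG6, 0.92 (SE 0.11, adjusted p = 1.01e-05) for Hsp70b and 0.82 (SE 0.25, adjusted p = 0.0142) for FES1A, which are 2.57-, 1.89- and 1.76-fold. HSC70-4, HSC70-3 and HSP90.2 were higher by 0.47, 0.39 and 0.37. ROF2, HSP101 and HSP90.1 had differences of 0.76, 0.44 and 0.38 that did not pass (adjusted p = 0.0741, 0.0753 and 0.0786). For 9 genes all 3 arrays stood above all 3 WT controls, as did 24.5% of all features. All 6 arrays lay on slide 1, and leaving out any 1 of them kept 6 calls. The GOX2 transcript, on the other hand, was at 9.60 to 9.79 on the arrays that carry the overexpressor's label and at 13.69 to 13.77 on the WT controls.

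**Figure D3:**
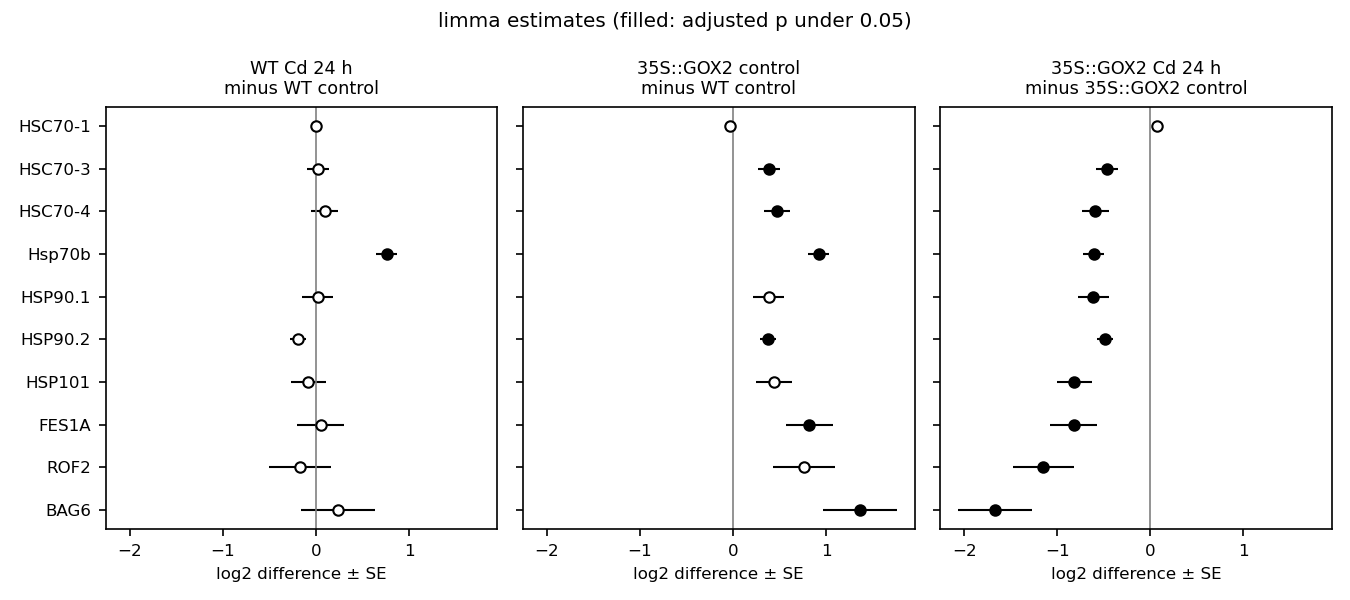
Log2 differences with their limma SE (x axis) of the 10 genes (y axis) in 3 comparisons of 3 arrays against 3, with filled points where the adjusted p was under 0.05. Hsp70b alone is filled for WT after 24 h, 6 genes are filled for 35S::GOX2 control against WT control, and all but HSC70-1 lie to the left of 0 and are filled for 35S::GOX2 after 24 h.

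On the arrays labelled 35S::GOX2 Cd 24 h, 9 of the 10 genes were lower than on those labelled 35S::GOX2 control and none was higher, where 43.9% of all features were called and 20.2% called lower. BAG6 decreased by 1.67 on the log2 scale (SE 0.40, adjusted p = 0.00233), to 0.31 of its level. ROF2 decreased by 1.15 (SE 0.33, adjusted p = 0.0083), HSP101 by 0.82 (SE 0.19, adjusted p = 0.00199) and FES1A by 0.82 (SE 0.25, adjusted p = 0.0119). The Hsp70 and Hsp90 genes decreased by 0.47 (HSC70-3), 0.59 (HSC70-4), 0.61 (Hsp70b), 0.61 (HSP90.1) and 0.49 (HSP90.2), and HSC70-1 differed by 0.07. All 3 arrays stood below all 3 controls for the 9 genes, as for 25.2% of all features, and all 9 calls were kept when any 1 array was left out. The 24 h arrays lay on slide 3 and the controls on slide 1, so the share of the slide cannot be told apart. With slide as a random block the count stayed at 9. GOX2 transcript was at 9.60 to 9.79 on the controls and at 14.01 to 14.35 on the 24 h arrays of this label. Whether both groups are of the same line was not tested.

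At 30 min the arrays labelled 35S::GOX2 split. Replicates 1 and 3 kept BAG6 at 13.36 and 13.41, beside the controls, whereas replicate 2 stood at 11.88. Against 35S::GOX2 control, Hsp70b was lower by 0.41 on the log2 scale (SE 0.11, adjusted p = 0.0131) and HSP90.2 by 0.29 (SE 0.09, adjusted p = 0.0203), which are 2 of the 10 genes where 23% of all features were called and 10.7% called lower. Without replicate 2 of the 30 min arrays, or without control replicate 3, Hsp70b alone remained called, and without control replicate 2 none did. The 30 min arrays lay on slide 3 and the controls on slide 1, so slide and treatment cannot be told apart, and both calls were lost with slide as a random block. GOX2 transcript was at 13.72 to 14.05 on these 30 min arrays and at 9.60 to 9.79 on the controls. No gene was called between the arrays labelled 35S::GOX2 Cd 24 h and Cd 30 min, all of slide 3, where 4.54% of all features were called and 8 of the 10 had an unadjusted limma p under 0.05. However, 6 genes lay below, BAG6 with a difference of -1.10 (SE 0.40, adjusted p = 0.0958), as did 7.93% of all features. Leaving out 30 min replicate 2 gave 7 calls, and leaving out 24 h replicate 2 gave 2 (HSC70-3 and HSC70-4).

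The arrays labelled gox2 gave few calls, in groups with wide spread. On the arrays labelled gox2 control, BAG6 was at 11.65, 13.61 and 13.30. Compared with WT control, Hsp70b was higher by 0.53 (SE 0.11, adjusted p = 0.00254) and FES1A by 0.77 (SE 0.25, adjusted p = 0.0288), which are 2 of the 10 genes where 26.9% of all features were called and 12.1% called higher. The FES1A groups overlapped, and the FES1A call was lost when any 1 array other than gox2 control replicate 1 was left out. Without gox2 control replicate 1, 5 genes were called higher (HSC70-3, HSC70-4, Hsp70b, FES1A and BAG6). The gox2 controls lay on slide 3 and the WT controls on slide 1, so slide and line cannot be told apart, and with slide as a random block Hsp70b alone was called.

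Within the gox2 label, the arrays of the 30 min treatment had lower FES1A than their controls by 0.76 on the log2 scale (SE 0.25, adjusted p = 0.0284), which was 1 of the 10 genes where 27.7% of all features were called and 12.4% called lower. This call was lost when any 1 array other than gox2 control replicate 1 was left out, and 6 genes were called lower without that replicate. It was also lost with slide as a random block, since the 30 min arrays lay on slide 1 and their controls on slide 3. GOX2 transcript was at 9.79 to 10.04 on these 30 min arrays and at 14.02 to 14.21 on their controls. The comparison at 24 h, of 2 split groups, called none of the 10 and 0.0135% of all features, and none of the 10 had an unadjusted limma p under 0.05. On the arrays labelled gox2 Cd 24 h, BAG6 stood at 13.30, 12.17 and 13.50.

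Compared at the same time after cadmium, the lines differed in few of the genes. At 30 min Hsp70b was 0.43 higher (SE 0.11, adjusted p = 0.0282) on the arrays labelled gox2 than on those labelled WT, the 1 gene called where 7.67% of all features were called and 3.67% called higher. This call was lost without any 1 of the 6 arrays and with slide as a random block (slides 1 and 2). Fits of these 2 groups alone called 5 genes higher (HSC70-3, HSC70-4, Hsp70b, FES1A and BAG6), with no share of all features recorded. For 8 genes all arrays labelled gox2 Cd 30 min stood above all those labelled WT Cd 30 min, as for 22.3% of all features.

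The arrays labelled 35S::GOX2 Cd 30 min were higher than those labelled WT Cd 30 min in 4 genes, where 16.9% of all features were called and 8.11% called higher. FES1A differed by 0.94 (SE 0.25, adjusted p = 0.0144), HSC70-4 by 0.54 (SE 0.14, adjusted p = 0.0124), HSP90.1 by 0.54 (SE 0.17, adjusted p = 0.0327) and HSC70-3 by 0.47 (SE 0.12, adjusted p = 0.0112). The count was 7 without 35S::GOX2 replicate 2, 1 (HSC70-3) without replicate 1 and 0 without replicate 3, and also 0 with slide as a block, since the 2 groups lay on slides 3 and 2.

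At 24 h none of the 10 genes was called between the arrays labelled gox2 and WT, where 2.14% of all features were and 3 of the 10 had an unadjusted limma p under 0.05, and without gox2 Cd 24 h replicate 2 there were 4 (HSC70-3, HSP90.1, HSP90.2 and FES1A, all higher). On the arrays labelled 35S::GOX2 Cd 24 h, Hsp70b was lower than on those labelled WT Cd 24 h by 0.45 on the log2 scale (SE 0.11, adjusted p = 0.0124), the 1 gene called where 14.6% of all features were called and 7.06% called lower. This call was lost without replicate 1 or 3 of either group, and with slide as a random block (slides 3 and 1). These comparisons share their WT and 35S::GOX2 arrays with those above.

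The response to cadmium was also compared between lines directly, with the 35S::GOX2 arrays after cadmium on slide 3 and its controls and the WT controls on slide 1. At 24 h the change against the own control was lower in 35S::GOX2 than in WT for 5 of the 10 genes, where 27.5% of all features were called and 12.7% called lower. The differences of the responses were -1.91 (SE 0.56, adjusted p = 0.0171) for BAG6 and -1.37 (SE 0.16, adjusted p = 0.000106) for Hsp70b. HSP101, HSC70-4 and HSC70-3 had differences of -0.74, -0.68 and -0.49. Leaving out 1 array left 4 calls for replicate 2 of 35S::GOX2 Cd 24 h and 3 for any of the other 11 arrays, which were those of HSC70-4, Hsp70b and BAG6. These 3 also remained with slide as a random block. The WT arrays after 24 h lay on slide 1, so slide and the 24 h treatment of 35S::GOX2 cannot be told apart in this contrast. GOX2 transcript was at 9.60 to 9.79 on the 35S::GOX2 controls and at 14.01 to 14.35 after 24 h. The part of that difference in the contrast was not tested. At 30 min the 1 such gene was Hsp70b, at -0.72 (SE 0.16, adjusted p = 0.00188), where 29.7% of all features were called and 13.6% called lower. Between gox2 and WT none was called at 30 min or at 24 h, where 27% and 0.0162% of all features were, and 0 and 1 of the 10 had an unadjusted limma p under 0.05. Without gox2 control replicate 1 there was 1 call at each time, FES1A at 30 min and Hsp70b at 24 h.

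FES1A had 3 features on the array, which agreed in which arrays were high but not in how far they moved. The feature used above ranged from 12.37 to 14.10 and the first feature from 12.43 to 14.02, both with the same 9 arrays on top. The third feature was dim and ranged from 6.61 to 11.16. Its highest values, 11.16, 10.68 and 10.89, were on gox2 control replicates 2 and 3 and gox2 Cd 24 h replicate 1, and the other 6 of the 9 arrays stood between 9.12 and 9.41. The arrays labelled WT Cd 30 min were the lowest in all 3 features. For 35S::GOX2 Cd 24 h against its control, the first feature was called lower like the one used above (limma adjusted p = 0.0125). The third was not called there (-1.31, SE 0.63, limma adjusted p = 0.0988). All 3 were called higher in gox2 control against WT control and lower in gox2 Cd 30 min against its control. Which transcripts the 3 features read is not stated in the sources used here.

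**Figure D4:**
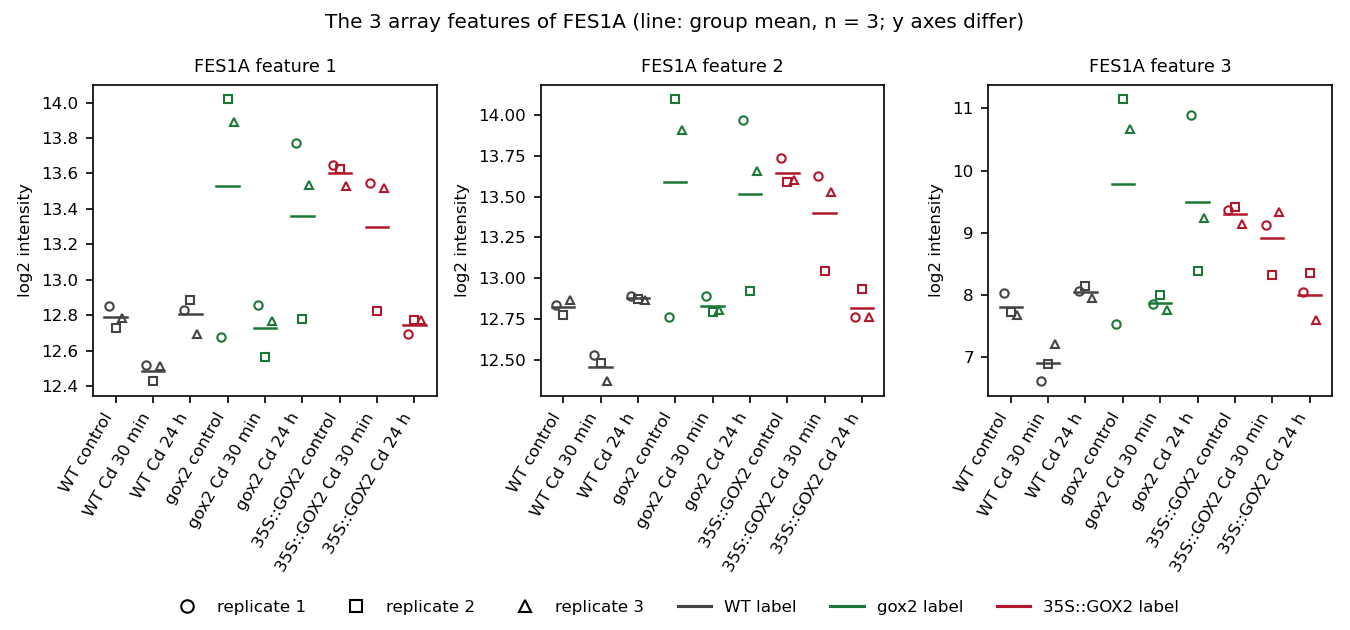
Log2 intensity (y axes, which differ) of the 3 features of FES1A on the 27 arrays, by labelled group (x axis) with the mean of 3 arrays as a line. In the third feature 3 arrays labelled gox2 stand at 10.68 to 11.16 and all others at 9.41 or lower.

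The relatives of these genes showed how far the patterns were shared. Counts for the gene lists and markers, here and in the next paragraphs, come from the fit of all arrays. They were not repeated without single arrays or with slide as a block, also where they rest on mixed groups. Among 14 other Hsp70 genes, 4 were called higher and none lower on the arrays labelled 35S::GOX2 control against WT control, where 16.2% of all features were called higher and 38.3% in either direction. ERD2 (AT1G56410), a dehydration- and heat-inducible cytosolic Hsp70, differed by 2.47 (SE 0.30) and HSP70T-2, a truncated form, by 1.01 (SE 0.31). The median of the list was 0.07 against -0.07 for all features. ERD2 was at 10.06, 10.03 and 10.47 on the arrays labelled WT control and between 11.55 and 12.54 on those labelled WT Cd 30 min, a difference of 1.84 (SE 0.30, adjusted p = 0.000453). Its order was thus unlike that of the 8 genes with the common split. After 24 h in 35S::GOX2, 6 of the 14 were called lower, where 20.2% of all features were, ERD2 with a difference of -1.53, and 1 was higher, BIP3, the stress-inducible Hsp70 of the endoplasmic reticulum, by 1.71 (SE 0.39).

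Among 8 other Hsp90 and Hsp100 genes, 3 were called higher on the arrays labelled 35S::GOX2 control against WT control, and none lower, against the same 16.2% of all features called higher. CLPB2, a relative of HSP101, differed by 2.43 (SE 0.34) and Hsp81.4, a cytosolic Hsp90 of the HSP90.2 cluster, by 0.79 (SE 0.11). Both were also called higher on the arrays labelled WT Cd 30 min, by 1.34 and 0.53, where HSP101 and HSP90.2 were not called. After 24 h in 35S::GOX2, 5 of the 8 were called lower, against 20.2% of all features, CLPB2 with a difference of -2.15, and 1 higher. The median of the list was -0.23 against 0.04 for all features.

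Of 20 other co-chaperones, 3 were called higher and 2 lower between the control arrays of 35S::GOX2 and WT, a smaller share than the 38.3% of all features called. BAG2, another BAG-domain protein, differed by 0.78, and Hop3, which bridges Hsp70 and Hsp90, by 0.53. After 24 h in 35S::GOX2, 5 were called lower, Hop3 with a difference of -0.77, and 5 higher, where 43.9% of all features were called, and the median was -0.04.

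Heat stress factors and their regulators, listed together, were called in both directions. The 22 listed loci on the array include the regulators MBF1C, a heat-induced coactivator, and HSBP. Of the 22, 8 were called higher and 2 lower on the arrays labelled 35S::GOX2 control against WT control. Of all features 38.3% were called there and 16.2% called higher. HSFA2 differed by 1.58 (SE 0.54), MBF1C by 0.93 and HSFB2A by 0.91. After 24 h in 35S::GOX2, 8 were called lower and 3 higher, where 43.9% of all features were called and 20.2% called lower. HSFA2 differed by -2.07 and HSFA7B (AT-HSFA7B) by -1.60. Between the arrays labelled 35S::GOX2 Cd 30 min and WT Cd 30 min, 10 were called higher and none lower, where 8.11% of all features were called higher. The mean centred level of the list was 0.38 and 0.37 on replicates 1 and 3 of 35S::GOX2 Cd 30 min and -0.13 on replicate 2. On the arrays labelled WT Cd 30 min it was -0.33 to -0.25. These groups lay on slides 3 and 2. In WT none was called after 30 min, where 15% of all features were. After 24 h 1 was called, HSFA8, higher by 0.44 (SE 0.11), where 3.22% of all features were called and 1.5% called higher.

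Markers of root tissue also differed between these groups. The mean centred level of the 12 root markers was 0.28 to 0.42 on the arrays labelled WT control, 0.12 to 0.16 on those labelled 35S::GOX2 control and -0.58 to -0.31 on those labelled 35S::GOX2 Cd 24 h. Of the 12, 4 were called lower after 24 h in 35S::GOX2 and none higher, where 43.9% of all features were called and 20.2% called lower. In 35S::GOX2 control against WT control 2 were called lower and none higher, a smaller share than the 38.3% of all features called. In gox2 control against WT control 7 were called lower (median -0.65), where 26.9% of all features were called in either direction. In 35S::GOX2 Cd 24 h against WT Cd 24 h 6 were called lower (median -0.59), where 14.6% of all features were called and 7.06% called lower. In gox2 Cd 30 min against its control 5 were called higher (median 0.39), where 27.7% of all features were called in either direction. In the split groups the level ran from -0.48 to 0.41 (gox2 Cd 24 h) and from -0.43 to 0.41 (35S::GOX2 Cd 30 min). The mean centred level of the 8 leaf markers stayed within -0.11 to 0.09, but single markers differed, LHCB2.1 by 0.70 in 35S::GOX2 control against WT control and by -0.47 after 24 h in 35S::GOX2. The part of these shifts in the chaperone values was not tested.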

How the data were processed

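The authors deposited 1 file per array with intensity values (the EXPRS column) on a linear scale after RMA, and a table of the whole series that holds the same values (largest difference 0). The submitters' processing notes name limma with its version not given; an annotation or genome build is not given in the sources used here. Slide and scan setting were read from the file names. The setting was 570 on slide 1, 560 on slide 2 and 590 on slide 3, apart from gox2 control replicate 3, at 570 on slide 3. Comparisons across slides are therefore also across scan settings, and the part of the setting was not tested. Here the deposited intensity was turned to log2 and quantile-normalized, because array medians ranged over 0.15 (10.02 to 10.17), more than the limit of 0.1. All 37118 features were fitted with limma 3.58.1 in R 4.3.3 (1 mean per group, 27 arrays, 18 residual degrees of freedom, eBayes, two-sided), and p-values were adjusted by Benjamini-Hochberg over all features with a threshold of 0.05. Loci were named for 31993 of 32627 through RefSeq (TAIR10.1). Where the array held several features for a locus, the brightest on average stood for it. Arrays give no counts, so their number limits the precision. The script was checked on simulated data with independent noise of the same spread in all groups and no slide effect. That check therefore says nothing about calls that rest on split groups or on different slides.

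The named genes were the 10 members, up to 4 genes per list with the largest called difference in a comparison, and the 8 loci most like the members' mean profile. Members, lists and rules were chosen with earlier results of these data known. Alternatives were the values as deposited, no dimmest 25% of features, mean over the features of a locus, slide or replicate number as a block, fewer groups in the fit, the series table, and leaving out each array. Replicate numbers did not pair the arrays. Replicates are called biological by the labels. No sequence of a gene or probe was used here.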

Additional observations from a re-analysis of the deposited data

Results flagged for a closer look

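The responses to cadmium that differed between the arrays labelled 35S::GOX2 and those labelled WT, by an interaction contrast in limma, are listed here as values. At 24 h the change against the own control was lower in 35S::GOX2, with a log2 difference of -1.91 for BAG6 (SE 0.56, adjusted p = 0.0171), -1.37 for Hsp70b (SE 0.16, adjusted p = 0.000106), -0.74 for HSP101 (SE 0.27, adjusted p = 0.0468), -0.68 for HSC70-4 (SE 0.20, adjusted p = 0.0159) and -0.49 for HSC70-3 (SE 0.17, adjusted p = 0.0357). At 30 min Hsp70b differed by -0.72 (SE 0.16, adjusted p = 0.00188). All 6 rest on 3 arrays in each of 4 groups, and the 24 h and 30 min contrasts share the control arrays of both lines. Of the 5 calls at 24 h, HSP101 was lost when any 1 of the 12 arrays was left out and HSC70-3 for 11 of the 12, both were lost with slide as a random block, and HSP101 also with the replicate number as a block. The 35S::GOX2 arrays after 24 h lay on slide 3 and the other arrays of this contrast on slide 1, so slide and treatment cannot be told apart there. GOX2 transcript was at 9.60 to 9.79 on the 35S::GOX2 controls, 13.72 to 14.05 after 30 min and 14.01 to 14.35 after 24 h. On the WT arrays it was at 13.69 to 13.77, 10.03 to 10.45 and 13.63 to 13.70. The part of these GOX2 differences in the contrasts was not tested. The Hsp70b call at 30 min was kept with slide as a random or a fixed block. With the fixed block, the difference between slides 2 and 3 came only from the split group gox2 Cd 24 h. Its replicates 1 and 2 lay on slide 2 and its replicate 3 on slide 3, so that fit says little about the part of the slide. With 3 arrays in a group, no single array was tested for standing apart.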

How the results depend on the processing

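Of 257 alternative counts of called genes, 191 stayed within 1.5 times the count reported and 66 did not. The share of all features called was not recorded for these fits, so a changed count cannot be set against a background. Of 485 alternative values for single called genes, 401 kept their call, 84 lost it and 0 changed sign. With slide as a random block (correlation within a slide 0.24), counts fell to 0 for gox2 Cd 30 min against its control, 35S::GOX2 Cd 30 min against its control, both lines against WT at 30 min, and 35S::GOX2 against WT at 24 h. They were 1 for gox2 control against WT control and for 35S::GOX2 Cd 24 h against Cd 30 min, and 3 for the difference of the 24 h responses of 35S::GOX2 and WT. Slide as a fixed block could be fitted for 7 of 17 contrasts, and gave 0 for 35S::GOX2 against WT at 30 min, 2 for 35S::GOX2 Cd 24 h against Cd 30 min and 1 for the difference of the gox2 and WT responses at 24 h. Fitting only the groups compared gave 4 for WT Cd 30 min against control, 0 for gox2 Cd 30 min against control, 1 for 35S::GOX2 Cd 30 min against control, 0 for gox2 control against WT control, 5 and 1 for gox2 and 35S::GOX2 against WT at 30 min, and 9 for the difference of the 24 h responses of 35S::GOX2 and WT. Without the 4 mixed groups the counts were 7 for WT at 30 min, 3 for WT at 24 h and 5 for gox2 against WT at 30 min. Without the dimmest 25% of features, 35S::GOX2 Cd 24 h against Cd 30 min gave 1.

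Leaving out 1 array at a time gave ranges of 0 to 6 for gox2 Cd 30 min against control and 1 to 5 for gox2 control against WT control (6 and 5 without gox2 control replicate 1), 0 to 2 for 35S::GOX2 Cd 30 min against control, 0 to 0 for gox2 and 0 to 7 for 35S::GOX2 against WT at 30 min, 0 to 4 for gox2 and 0 to 1 for 35S::GOX2 against WT at 24 h, 0 to 7 for 35S::GOX2 Cd 24 h against Cd 30 min, and 3 to 4 for the difference of the 24 h responses of 35S::GOX2 and WT. For the differences of the gox2 and WT responses the range was 0 to 1 at both times. It stayed at 0 for WT and 1 for WT at 30 min and 24 h, 0 for gox2 at 24 h, 9 for 35S::GOX2 at 24 h, 6 for 35S::GOX2 control against WT control and 1 for the difference of the 30 min responses of 35S::GOX2 and WT. Where a group was left with 2 arrays, its spread was taken from the pooled fit.

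Arrays with the same replicate number correlated in their deviations from the group means by -0.61 to 0.81 (median 0.02, 108 pairs), and those with different numbers by -0.77 to 0.67. With the replicate number as a block, the difference of the 24 h responses of 35S::GOX2 and WT gave 4 calls in place of 5, with HSP101 lost, and every other count was the one reported, for example 9 for 35S::GOX2 Cd 24 h against control and 6 for 35S::GOX2 control against WT control. An added alternative, chosen after seeing the data, used slide 3 alone for gox2 Cd 24 h against control and gave 0, but it set 1 array against 3 and says nothing about stability. HSC70-1 lies near the brightest values of the arrays, which limits what can be seen of a change.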
